A study of Mus musculus with 8 samples.

Results

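The acute phase genes considered here are 10 mouse genes that encode plasma proteins of the inflammatory response, namely Saa1, Saa2, Saa3, Saa4, Orm1, Orm2, Orm3, Hp, Lcn2 and Crp. They were chosen by gene symbol, and all 10 of 10 were measured, by 1 probe set each, among 19540 genes on the arrays. The series holds 8 Affymetrix arrays of liver total RNA. Of these, 4 are from WT mice and 4 from HNF6KO mice, in which the transcription factor HNF6, encoded by Onecut1, is depleted. All mice were male, of strain C57B/6, aged 12 weeks, fed chow, given no specific treatment and sampled at ZT10, 5 pm. Values of a group are listed in the order of its arrays, 1 to 4. The sources used here do not give how HNF6 was depleted or in which cells. Nothing in the labels states that each array of a group is a separate animal, so a p-value here reflects the spread among these samples alone, which may be technical. The question was whether the transcripts of these genes differ between WT and HNF6KO livers at that time of day.

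In the acute phase response, cytokines of the interleukin-6 and interleukin-1 families act on hepatocytes through STAT3, NF-kB and the C/EBP factors and raise the output of positive acute phase proteins, while albumin, transthyretin and other negative acute phase proteins decline. Serum amyloid A1 and A2 are lipid-binding proteins carried on high density lipoprotein. In mice the pair is among the most strongly induced liver products, while C-reactive protein responds only weakly and the related pentraxin serum amyloid P, encoded by Apcs, takes the larger part. HNF6 is a homeodomain factor of hepatocytes and of the biliary lineage.

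Hepatocyte markers were present on all arrays, with a mean log2 value of 13.57 to 13.64 in WT and 13.60 to 13.70 in HNF6KO over 7 measured markers. Onecut1 checked the labels: its log2 values were 10.17, 9.87, 10.45 and 10.52 in WT, and 9.32, 9.05, 8.67 and 8.70 in HNF6KO, with no overlap, a log2 change of -1.32 ± 0.18 (SE, limma adjusted p = 0.0273). The deposited values run from 3.69 to 14.11 and read as log2, and array medians lay between 6.89 and 6.97. Their logarithm base and any earlier scaling are not stated in the labels. All fold changes below assume log2. On that reading, Onecut1 signal remained in HNF6KO, at 0.401 of the WT level.

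No acute phase gene passed the comparison of HNF6KO with WT. With limma and a threshold of 0.05 on the Benjamini-Hochberg adjusted p over all genes, 0 of the 10 rose and 0 fell, where 0.399% of all genes passed. At an unadjusted p of 0.05, 1 of the 10 (Crp, lower) passed, where 9.51% of all genes did. A plain two-sample test with the same adjustment also called 0 of the 10. That test called only 0.0102% of all genes and did not call Onecut1 (adjusted p = 0.194), so its 0 says little. The median log2 change, HNF6KO minus WT, was 0.24 over the 10 genes and -0.01 over all genes. Of the 10 changes 7 were above 0 and 3 below, between -0.68 for Crp and 1.18 for Orm2. Most of these estimates were wide, because the arrays of each group differed greatly among themselves, as the plot of each gene by array shows.

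**Figure D1:**
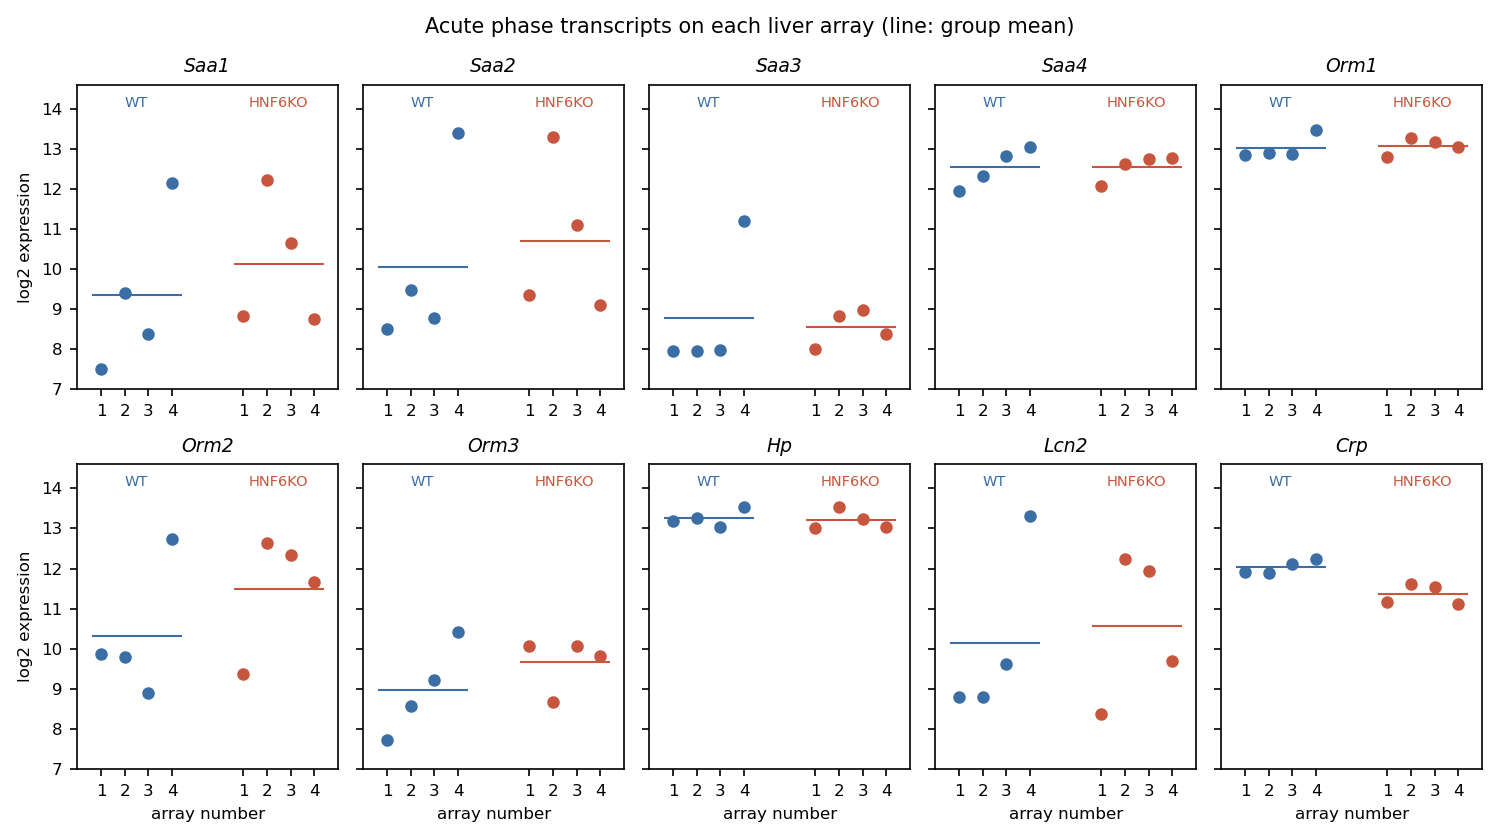
Log2 expression of the 10 acute phase genes on WT arrays 1 to 4 (blue) and HNF6KO arrays 1 to 4 (red), 1 panel a gene, each point 1 array and each line a group mean. Saa1, Saa2, Orm2 and Lcn2 are high on WT array 4 and on HNF6KO arrays 2 and 3, while Crp has all 4 HNF6KO points, 11.11 to 11.63, below all 4 WT points, 11.88 to 12.23.

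Crp, which encodes the pentraxin C-reactive protein that binds phosphocholine on damaged cells and bacteria, was lower in each HNF6KO sample than in all of the WT samples. Its log2 values were 11.91, 11.88, 12.12 and 12.23 in WT, and 11.16, 11.63, 11.53 and 11.11 in HNF6KO. The groups do not overlap, with HNF6KO array 2 nearest to WT, and 3.21% of all genes tested had groups that did not overlap with HNF6KO the lower. Group means were 12.04 ± 0.17 (SD, n = 4) for WT against 11.35 ± 0.26 (SD, n = 4) for HNF6KO. The log2 change was -0.68 ± 0.13 (SE), or 1.60-fold lower, with a 95% confidence interval of -0.98 to -0.38 and adjusted p = 0.0888 in limma, which misses the threshold. At a threshold of 0.1, Crp would be called among the 0.455% of genes that were then called lower. In bulk liver, fewer hepatocytes and less Crp transcript per hepatocyte cannot be told apart from the Crp values alone. The 7 hepatocyte markers measured on the same arrays had log2 changes of -0.03 to 0.14, with a median of 0.04. For 2 of the 7, Alb and Ttr, the groups did not overlap, with HNF6KO the higher. Groups did not overlap for 5.67% of all genes, in either direction. At an unadjusted p of 0.05 in limma, 1 of the 7 was higher, where 9.51% of all genes passed. Alb, Ttr, Apoa1 and Fgb are also on the acute phase lists below. The array means of the 7 markers, 13.57 to 13.70, lay near the highest deposited value, 14.11, where a change may be understated. Hepatocyte content was not tested.

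The log2 change of Crp ran from -0.86 to -0.51 under the 23 alternatives run for it. Its adjusted p (limma, or a two-sample test in 1 alternative) ran from 0.0321 to 0.389. As the groups do not overlap, leaving out, splitting or weighting arrays could not turn the sign of Crp. Leaving out any 1 array gave changes of -0.77 to -0.60 and adjusted p of 0.0649 to 0.245. It passed in 2 of the alternatives. A fit that added array set (1 and 2, or 3 and 4) to genotype, a division known from earlier results of these data, gave Crp an adjusted p = 0.0474 in limma, where 1.25% of all genes passed. Within arrays 1 and 2 the change was -0.51 ± 0.16 (SE), and within arrays 3 and 4 it was -0.86 ± 0.14 (SE), each from 2 arrays a group.

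The 250 bases before the annotated start of Crp are shown because Crp was the 1 member whose groups did not overlap, and because they hold the core letters of the HNF6 binding motif. The sequence is from RefSeq, build GRCm38.p6, and lies on the plus strand at chr1:172697806-172698055. Capitals mark the letters ATTGAT, the match that begins 158 bases before the start.
Crp: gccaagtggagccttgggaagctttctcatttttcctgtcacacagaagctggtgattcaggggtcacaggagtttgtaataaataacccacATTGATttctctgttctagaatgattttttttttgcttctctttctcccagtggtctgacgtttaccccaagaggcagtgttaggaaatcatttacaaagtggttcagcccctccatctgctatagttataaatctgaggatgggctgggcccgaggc

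The letters ATTGAT, on either strand, were found before 1 of the 8 member genes with a promoter in the RefSeq table, namely Crp, and before 6.72% of all 32851 annotated starts. The motif letters were chosen with the data and these promoters known. Other forms of the HNF6 motif were not searched and would be missed. A match is a run of letters, and HNF6 binding was not measured here.

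Saa1, Saa2, Orm2 and Lcn2 were the most variable members, and their high values lay on the same arrays of both genotypes. Saa2 had log2 values of 8.49, 9.48, 8.77 and 13.40 in WT, and of 9.34, 13.28, 11.10 and 9.10 in HNF6KO. WT array 4 and HNF6KO array 2 were almost equal and far above the rest, with HNF6KO array 3 between, so the groups overlap throughout. The highest WT array was 30.0-fold above the lowest, and the highest HNF6KO array 18.1-fold above the lowest. Group means were 10.04 ± 2.28 (SD, n = 4) for WT against 10.70 ± 1.93 (SD, n = 4) for HNF6KO, a log2 change of 0.67 ± 1.22 (SE, 95% confidence interval -2.10 to 3.43, limma adjusted p = 0.932). Without HNF6KO array 2 the change turned to -0.19.

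Saa1, whose product shares its role with that of Saa2, followed it closely. Its log2 values were 7.52, 9.40, 8.38 and 12.15 in WT, and 8.82, 12.23, 10.65 and 8.76 in HNF6KO. The high arrays were again WT array 4 and HNF6KO array 2. The change was 0.75 ± 1.07 (SE, 95% confidence interval -1.66 to 3.17, limma adjusted p = 0.896), so a difference of several-fold in either direction is inside the interval. The genes are close copies, the reference table lists each symbol as an older name of the other, and their probe sets may share signal.

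Lcn2 encodes lipocalin 2, which binds bacterial siderophores and so withholds iron. Its log2 values were 8.80, 8.80, 9.63 and 13.31 in WT, and 8.37, 12.24, 11.94 and 9.70 in HNF6KO. The same 3 arrays, WT array 4 and HNF6KO arrays 2 and 3, stood above the others. The change was 0.43 ± 1.16 (SE, 95% confidence interval -2.20 to 3.05, limma adjusted p = 0.960), and it was below 0, at -0.13 to -0.02, when WT array 1, WT array 2, HNF6KO array 2 or HNF6KO array 3 was left out.

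Orm2 belongs to the orosomucoids, or alpha-1-acid glycoproteins, lipocalins that bind basic drugs and dampen inflammation. Its log2 values were 9.86, 9.80, 8.89 and 12.75 in WT, and 9.37, 12.63, 12.34 and 11.67 in HNF6KO. Here HNF6KO arrays 2, 3 and 4 were high, HNF6KO array 1 lay among the low WT arrays, and WT array 4 was highest of all. This gave the largest estimate of the 10 genes, a log2 change of 1.18 ± 0.91 (SE, 95% confidence interval -0.89 to 3.25, limma adjusted p = 0.769). It stayed above 0 under each of the 22 alternatives run, from 0.68 to 1.99, and passed in 0 of them.

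Among all 19540 genes, the SD within groups on the log2 scale was largest for Saa2 (2.11), then Lcn2 (2.01) and Saa1 (1.84), with Orm2 (1.58) ranked 5 and Saa3 (1.19) ranked 13. The median within-group SD was 1.06 over the 10 members and 0.10 over all genes. Every member was above the 90th percentile, the lowest being Crp at the 90.2 percentile with an SD of 0.22. These ranks describe the spread between arrays and carry no test.

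Across the 8 arrays, the 6 pairs among Saa1, Saa2, Orm2 and Lcn2, a set chosen after the values were seen, had Pearson r of 0.83 to 0.98 and Spearman rho of 0.71 to 0.98. With each group centred on its own mean, r was 0.82 to 0.98, and without WT array 4 it was 0.77 to 0.98. The points of these correlations share the same 8 arrays, and r is given as a description. Of all 45 pairs of members 42 had r above 0 and 3 below.

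The 250 bases before the starts of Saa1, Saa2, Orm2, Orm3 and Lcn2 are shown because Saa1, Saa2, Orm2 and Lcn2 had their high values on the same arrays and because Orm3, a close copy of Orm2, had an r of only 0.38 with it. They are from RefSeq, build GRCm38.p6. Saa1 lies at chr7:46742981-46743230 on the minus strand, Saa2 at chr7:46751583-46751832 on the plus strand, Orm2 at chr4:63362199-63362448 on the plus strand, Orm3 at chr4:63355908-63356157 on the plus strand and Lcn2 at chr2:32387740-32387989 on the minus strand. Capitals mark the letters TTGCNNAA, a form of the C/EBP motif, on either strand.
Saa1: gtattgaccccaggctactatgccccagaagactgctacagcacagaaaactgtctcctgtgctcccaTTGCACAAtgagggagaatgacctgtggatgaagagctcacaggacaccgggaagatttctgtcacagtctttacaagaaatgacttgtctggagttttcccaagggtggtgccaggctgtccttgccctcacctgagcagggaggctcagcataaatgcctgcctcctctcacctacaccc
Saa2: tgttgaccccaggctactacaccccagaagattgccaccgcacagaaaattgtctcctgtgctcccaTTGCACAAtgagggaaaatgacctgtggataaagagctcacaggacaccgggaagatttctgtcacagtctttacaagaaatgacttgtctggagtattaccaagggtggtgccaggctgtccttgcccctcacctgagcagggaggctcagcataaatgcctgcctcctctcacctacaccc
Orm2: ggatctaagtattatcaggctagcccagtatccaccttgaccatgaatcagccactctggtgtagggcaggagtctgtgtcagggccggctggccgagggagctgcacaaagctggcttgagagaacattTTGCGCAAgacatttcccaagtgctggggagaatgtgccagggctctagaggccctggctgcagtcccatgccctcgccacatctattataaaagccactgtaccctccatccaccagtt
Orm3: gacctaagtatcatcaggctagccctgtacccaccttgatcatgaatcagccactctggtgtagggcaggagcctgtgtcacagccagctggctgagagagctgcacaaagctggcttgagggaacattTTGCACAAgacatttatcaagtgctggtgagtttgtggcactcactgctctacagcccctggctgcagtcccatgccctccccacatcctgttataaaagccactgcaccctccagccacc
Lcn2: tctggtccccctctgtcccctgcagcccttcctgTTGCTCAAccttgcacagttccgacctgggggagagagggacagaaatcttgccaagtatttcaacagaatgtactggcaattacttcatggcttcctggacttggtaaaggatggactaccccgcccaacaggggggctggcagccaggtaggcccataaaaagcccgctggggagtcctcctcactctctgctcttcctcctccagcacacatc

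The Saa1 and Saa2 stretches were 94.8% identical over 251 alignment columns and carried the same C/EBP letters, TTGCACAA, beginning 182 and 183 bases before their starts. Those of Orm2 and Orm3 were 85.5% identical over 255 columns, with TTGCGCAA beginning 120 bases before the Orm2 start and TTGCACAA beginning 121 bases before the Orm3 start. The letters TTGCNNAA were found before 7 of the 8 genes, all except Crp, and before 9.56% of all 32851 starts. No match was found before any of the 8 for TTCNNNGAA (STAT3), GGANTTTCC (NF-kB) or GTTAAT (an HNF1 element), which occurred before 7.02%, 1.07% and 6.43% of all starts. None of these motifs overlapped another in these stretches, which cover the bases next to the start alone. Each motif was searched by the letters given here alone, so sites with other letters would be missed. The map of matches gives their distances for all 8 genes.

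**Figure D2:**
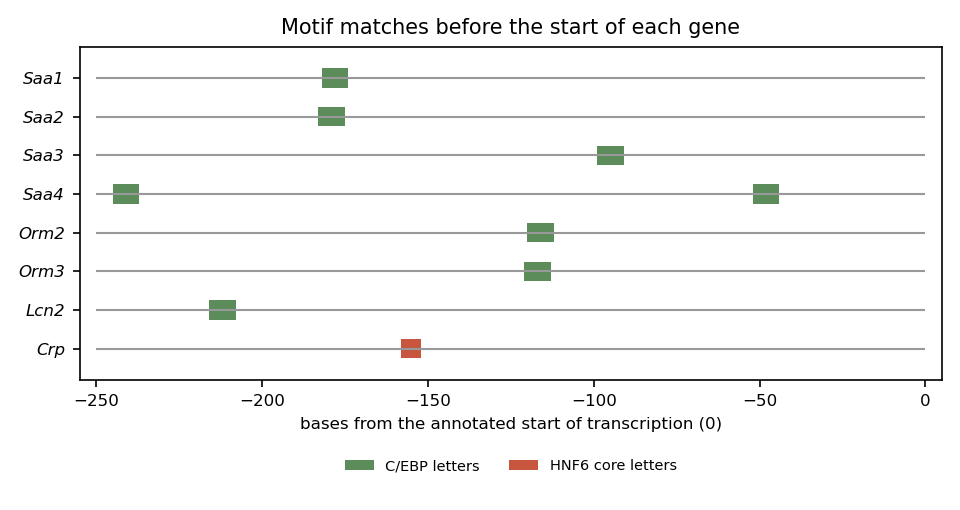
Position of motif matches in the 250 bases before the annotated start of 8 member genes, in bases from the start, with C/EBP letters in green and HNF6 core letters in red. C/EBP letters lie before 7 genes, with 2 matches before Saa4, and the letters ATTGAT, the form of the HNF6 core searched, before Crp alone of these 8.

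Saa3, which is also made outside the liver, by macrophages and fat, had log2 values of 7.95, 7.95, 7.98 and 11.21 in WT, and of 7.99, 8.83, 8.97 and 8.39 in HNF6KO. WT array 4 stood alone, 9.59-fold above the lowest WT array, while the HNF6KO arrays spanned 1.97-fold. Each HNF6KO array was above each of WT arrays 1 to 3. The 3 highest arrays, WT array 4 and HNF6KO arrays 3 and 2, were those of Saa1 and Saa2, with an r over the 8 arrays of 0.77 with Saa1 and 0.81 with Saa2, and of 0.82 with each without WT array 4. The log2 change of -0.22 ± 0.69 (SE, limma adjusted p = 0.965) turned to 0.59 without WT array 4.

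Saa4, the constitutive serum amyloid A of high density lipoprotein, had log2 values of 11.95, 12.32, 12.81 and 13.05 in WT, and of 12.06, 12.62, 12.73 and 12.78 in HNF6KO. The groups lay over each other, and array 1 was lowest in both. The change was 0.02 ± 0.25 (SE) with a 95% confidence interval of -0.54 to 0.57, or 0.687 to 1.49 as a ratio of HNF6KO to WT (limma adjusted p = 0.994).

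Orm3, a further orosomucoid gene, had log2 values of 7.73, 8.57, 9.21 and 10.42 in WT, and of 10.06, 8.69, 10.08 and 9.83 in HNF6KO. HNF6KO array 2, among the highest for Saa1, Saa2, Orm2 and Lcn2, was the lowest HNF6KO array for Orm3. The change was 0.68 ± 0.54 (SE, 95% confidence interval -0.54 to 1.90, limma adjusted p = 0.775), above 0 under each of the 22 alternatives run. Its r with the mean of the other 9 members was 0.42, against 0.85 for Orm2 and 0.98 for Orm1. The Orm genes are close copies, and their probe sets may share signal.

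Orm1, another orosomucoid gene, had a narrow range. Its log2 values were 12.83, 12.90, 12.87 and 13.47 in WT, and 12.80, 13.26, 13.17 and 13.05 in HNF6KO. WT array 4 was highest, and HNF6KO arrays 2, 3 and 4 lay above WT arrays 1 to 3. The change of 0.05 ± 0.15 (SE) had a 95% confidence interval of -0.29 to 0.40, or 0.816 to 1.32 as a ratio (limma adjusted p = 0.962). The Orm1 values lay near the highest deposited value, 14.11, where a change may be understated.

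Hp encodes haptoglobin, which captures free hemoglobin in plasma. Its log2 values were 13.19, 13.25, 13.03 and 13.53 in WT, and 13.01, 13.53, 13.23 and 13.03 in HNF6KO. The highest arrays of the groups had the same value to 2 decimals, and the change was -0.05 ± 0.14 (SE) with a 95% confidence interval of -0.36 to 0.26, or 0.779 to 1.19 as a ratio (limma adjusted p = 0.959). The Hp values also lay near the highest deposited value, 14.11, so its narrow interval may understate a change. The interval of Saa2, as a ratio, ran from 0.234 to 10.8.

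**Figure D3:**
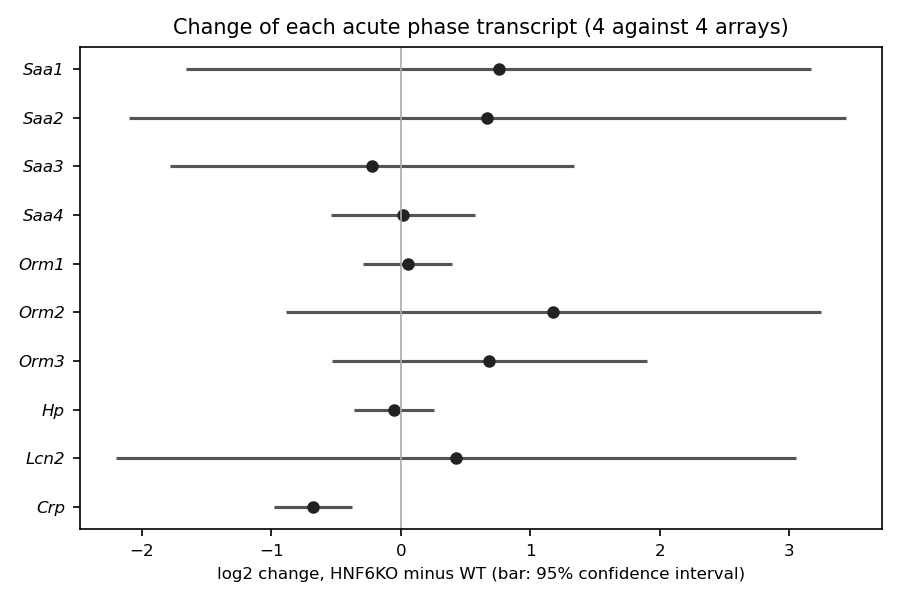
Log2 change of each of the 10 genes, HNF6KO minus WT, from limma on 4 against 4 arrays (points), with 95% confidence intervals (bars). The interval of Crp, -0.98 to -0.38, lies below 0 before adjustment over all genes, those of Hp and Orm1 are narrow around 0, and those of Saa1, Saa2, Orm2 and Lcn2 span several units. Hp and Orm1 lay near the highest deposited value, where a change may be understated.

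WT array 4 and HNF6KO array 2 were the highest of their group both for Crp and for the mean of the other members. HNF6KO array 3 ranked next in both. The order of the rest was mixed. WT array 2 had a higher mean of the others than WT array 1 (-0.63 against -1.09) but less Crp (11.88 against 11.91). HNF6KO array 4 had a higher mean than HNF6KO array 1 (-0.21 against -0.71) but less Crp (11.11 against 11.16). The HNF6KO arrays lay lower at a given level of the others. Across all 8 arrays the r of Crp with the mean of the other 9 members, each centred on its own mean, was 0.19. With each group centred on its own mean, r was 0.78. Leaving WT array 4 and HNF6KO array 2, the 2 arrays farthest from the median, out after that centring gave 0.68. The group means used for the 0.68 still included those 2 arrays. These r values are descriptions over the same 8 arrays. With the mean of the other 9 members as a covariate, a fit chosen after the data were seen, the log2 change of Crp was -0.74 ± 0.10 (SE), or 1.67-fold lower, and Crp passed (limma adjusted p = 0.0321), where 0.338% of all genes did. Lbp, the lipopolysaccharide-binding protein gene, passed in that fit as well (-0.76 ± 0.10, SE, limma adjusted p = 0.0337). The plot of Crp against the other members shows the offset.

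**Figure D4:**
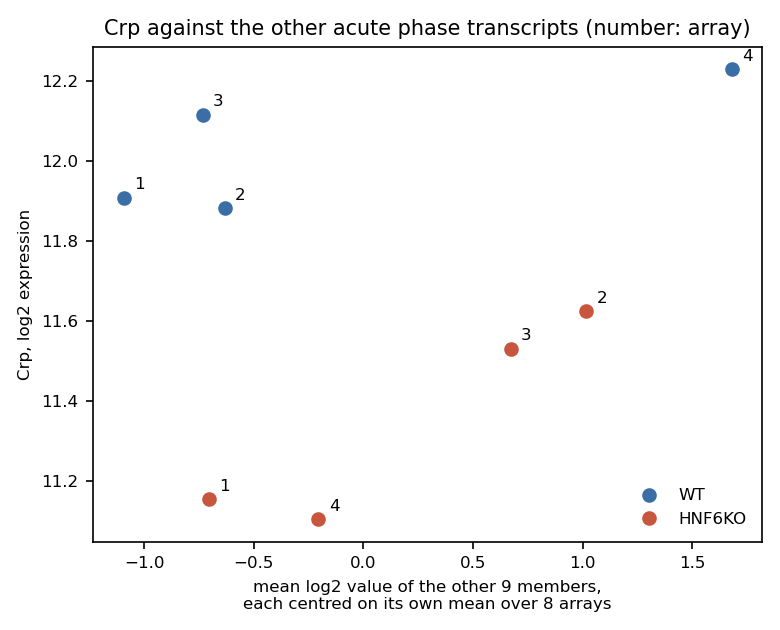
Crp log2 expression (vertical) against the mean log2 value of the other 9 members, each centred on its own mean over the 8 arrays (horizontal), for WT (blue) and HNF6KO (red) arrays, labelled by array number. HNF6KO arrays 2 and 3 have a mean of the other members of 1.02 and 0.67, yet their Crp, 11.63 and 11.53, is below that of WT array 1, 11.91, where the mean of the others is -1.09.

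Other positive acute phase genes were not called either. Of a list of 27, chosen with earlier results known, 21 were measured, and with limma 0 rose and 0 fell over all genes. At an unadjusted p of 0.05, 1 was lower (Lbp) and 0 higher, and the median change was 0.01, beside -0.01 over all genes. Lbp had log2 values of 10.91, 11.19, 11.26 and 12.02 in WT, and of 10.20, 10.94, 11.10 and 10.71 in HNF6KO, a change of -0.61 ± 0.26 (SE, limma adjusted p = 0.4997). Steap4, a metalloreductase induced by interleukin-6, had the next smallest p, with a change of 0.32 ± 0.21 (SE, limma adjusted p = 0.713).

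Some of these genes, named after their values were seen, had the array pattern of Saa2. Mt2, a metallothionein, had log2 values of 11.46, 10.68, 12.04 and 13.32 in WT, and of 9.70, 13.43, 12.73 and 10.13 in HNF6KO. Apcs, the mouse serum amyloid P gene, had 10.32, 10.17, 9.43 and 11.88 in WT, and 9.69, 11.55, 10.16 and 8.64 in HNF6KO. WT array 4 and HNF6KO array 2 were the highest of their group for both, as the heat map shows. The change of Apcs was -0.44 ± 0.65 (SE, limma adjusted p = 0.903).

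**Figure D5:**
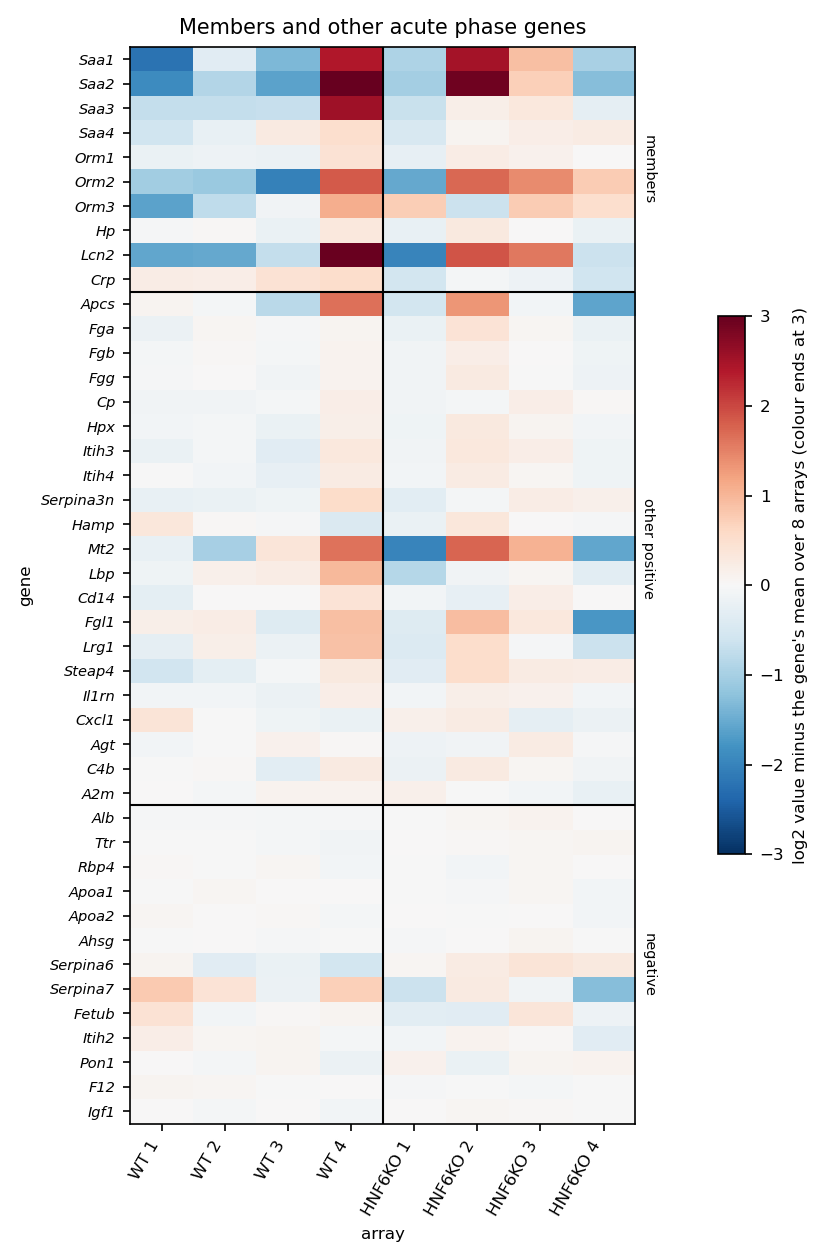
Heat map of log2 values minus each gene's mean over the 8 arrays, for the 10 members, 21 other positive and 13 negative acute phase genes (rows) on WT and HNF6KO arrays (columns), with red above and blue below the mean. WT array 4 and HNF6KO array 2 are both clearly red for Saa1, Saa2, Orm2, Lcn2, Apcs, Mt2 and Fgl1. Most other positive genes are pale on HNF6KO array 2, where Orm3 is blue. Most negative genes are near white on both arrays. The colour ends at 3, which Saa2 passes on WT array 4.

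Most negative acute phase genes varied little between arrays, with a median within-group SD of 0.05 on the log2 scale, but Serpina7 (0.57), Fetub (0.28) and Serpina6 (0.21) varied more. Of 15 listed, 13 were measured, 0 passed over all genes in limma, 1 was higher and 1 lower at an unadjusted p of 0.05, and the median change was 0.00. The groups did not overlap for 2 of the 13, as for 5.67% of all genes. Serpina6, the corticosteroid-binding globulin gene, had a change of 0.50 ± 0.13 (SE, limma adjusted p = 0.207), and Serpina7, the thyroxine-binding globulin gene, one of -0.87 ± 0.33 (SE, limma adjusted p = 0.434). Albumin (Alb) was between 13.96 and 13.98 on WT arrays and at most 14.11 on HNF6KO arrays, with no overlap.

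The signalling genes upstream of the members gave 0 calls over all genes in limma. Of 25 genes of interleukin-6 receptor and STAT3 signalling 24 were measured, with 1 higher and 2 lower at an unadjusted p of 0.05. Socs2, a feedback inhibitor of cytokine and growth hormone receptors, had a change of 0.85 ± 0.22 (SE, limma adjusted p = 0.208), and Bcl3, a nuclear partner of NF-kB, one of -0.53 ± 0.17 (SE, limma adjusted p = 0.318). Of 30 genes of interleukin-1, TNF and NF-kB signalling 26 were measured, with 3 higher and 4 lower at an unadjusted p of 0.05, and the groups did not overlap for 5 of them. Over all genes 9.51% passed that unadjusted p and 5.67% had groups that did not overlap, in either direction. Irak2, a kinase-like adaptor of interleukin-1 receptors, had a change of -0.41 ± 0.09 (SE, limma adjusted p = 0.123). Rela, the p65 subunit of NF-kB, had log2 values of 9.03, 8.99, 9.27 and 9.14 in WT, and of 8.65, 8.49, 8.76 and 8.89 in HNF6KO, a change of -0.41 ± 0.09 (SE, limma adjusted p = 0.161). When array set (1 and 2, or 3 and 4) was added to the fit, Rela (adjusted p = 0.0165), Irak2 (0.0373) and Bcl3 (0.0246) were lower and passed in limma, in a fit that called 1.25% of all genes against 0.399% without array set.

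Receptors and binding partners of the members did not pass. Of 14 listed, 13 were measured, 0 passed over all genes in limma, and 2 were higher at an unadjusted p of 0.05. Cd36, a scavenger receptor that binds serum amyloid A, had a change of 0.99 ± 0.30 (SE, limma adjusted p = 0.300), and Scarb1, the high density lipoprotein receptor, one of 0.28 ± 0.12 (SE, limma adjusted p = 0.497).

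Markers of other cells that can make these transcripts were compared on the same arrays. All 14 neutrophil markers were measured, and 0 passed in limma. Their summed level, on the linear scale, was 793 to 842 in WT and 725 to 845 in HNF6KO. Their mean log2 value was 5.58 to 5.79 over all arrays. It was highest on WT array 4 (5.79) in WT and on HNF6KO array 2 (5.76) in HNF6KO, where array 1 had 5.75. By summed level HNF6KO array 1 was the highest HNF6KO array. Values do not reach 0 on this scale, so no marker could be called absent. All 12 Kupffer cell markers were measured, 0 passed in limma, and their summed level was 2743 to 6861 in WT and 2817 to 8927 in HNF6KO. WT array 4 was the highest WT array for both Kupffer cell markers and Saa2, but HNF6KO array 2, the highest HNF6KO array for Saa2, was the lowest HNF6KO array for Kupffer cell markers. The part of neutrophils and Kupffer cells in the values of Saa3 and Lcn2 was not tested. All 8 sinusoidal endothelium and all 12 Kupffer cell markers had changes above 0, with medians of 0.23 and 0.10, where 42.6% of all genes had a change above 0. Markers of 1 list share the same 8 arrays and are not independent, so these counts are a description and no test. The smallest unadjusted p in limma was 0.29 among the endothelium and 0.53 among the Kupffer cell markers. The lists for monocytes, lymphocytes, endothelium, stellate cells, cholangiocytes and adipocytes had 0 markers past the threshold in limma. At an unadjusted p of 0.05, which 9.51% of all genes passed, 1 of 7 monocyte and 1 of 10 lymphocyte markers were higher and 2 of 5 adipocyte markers were lower. None of the 8 endothelium, 9 stellate cell and 6 cholangiocyte markers passed it.

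Outside the 10, the 5 named genes most like them in pattern over the 8 arrays were Hsp90b1, Prg4, Il1rn, Lysmd2 and Itih3, by Pearson r with the members' mean after each was centred. Hsp90b1, a chaperone of the endoplasmic reticulum, had r = 0.95, Prg4, encoding lubricin, r = 0.94, Il1rn, the interleukin-1 receptor antagonist, r = 0.94, Lysmd2 r = 0.93 and Itih3, an inter-alpha-trypsin inhibitor heavy chain, r = 0.92. Without WT array 4 and HNF6KO array 2, the arrays farthest from the median, r was 0.94 for Hsp90b1 and 0.82 to 0.86 for the other 4. Il1rn and Itih3 are also on the list of positive acute phase genes. Prg4 had log2 values of 9.98, 10.04, 9.83 and 11.44 in WT, and of 10.35, 11.40, 10.85 and 10.57 in HNF6KO, so WT array 4 and HNF6KO array 2 led again.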

How the data were processed

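Total RNA of mouse liver was extracted with Trizol and labelled with biotin, per the labels' protocols. The authors deposited 1 value per probe set and array, read here as log2 from its range; how the scans were background-corrected, normalized and summarised is not given in the labels. Of 22725 probe sets, 21113 were paired with 1 gene symbol by the platform annotation, 43 with several and 1569 with none, and the last 2 kinds were left out. The brightest probe set over the 8 arrays stood for a gene, which left 19540 genes. HNF6KO was compared with WT by limma 3.58.1 in R 4.3.3 (lmFit and eBayes, two-sided), with p-values adjusted by Benjamini and Hochberg across the 19540 genes at 0.05. No value was filtered or rescaled. That test was first tried on simulated data. Promoters were aligned with Biopython 1.88. The members, the 6 gene lists and the 9 marker lists were chosen with earlier results of these data known. The named genes are all 10 members, Onecut1, list members past the threshold or otherwise the 2 with the smallest p, and the 5 genes most like the members by r. No 2 arrays were copies of each other (r 0.987 to 0.997 across probe sets). Alternatives were 3 normalizations, an intensity filter, other variance models, array weights, probe set rules, thresholds, array splits and each array left out. The number of arrays, 4 a group, limits the precision.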

Additional observations from a re-analysis of the deposited data

Results flagged for a closer look

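Within the 4 WT arrays, WT array 4 lay far from the other 3 for several genes, by the ratio of its gap to the nearest array over the range of the group. The ratio was 0.991 for Saa3 and 0.897 for Orm1 among the members, and 0.874 for Prg4 and 0.866 for Lysmd2 among the genes most like them. Of 30 groups of 4 arrays examined, 4 exceeded the 95% critical value of this ratio (Dixon), where chance gives about 5% of independent groups. Prg4 and Lysmd2 were named for their likeness to the members and are not independent of them. Among the 20 groups of the members alone, the WT groups of Saa3 and Orm1 exceeded it. These genes share the same arrays, and Saa3 and Orm1 had an r of 0.91, so the count is no test. No HNF6KO array was marked in this way for these genes.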

How the results depend on the processing

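The count of members past the threshold was 0 in limma and stayed at 0 in each alternative but 2, a threshold of 0.1 (1, Crp) and array set (1 and 2, or 3 and 4) as an added factor (1, Crp); the covariate fit, made for Crp, also called it. Array set also gave 1 call among the interleukin-6 genes and 2 among the interleukin-1, TNF and NF-kB genes, and array weights gave 1 among the latter. The array number as a replicate block called 0 members and 125 genes in all. Deviations from the group mean over all genes had r of 0.44, 0.17, 0.51 and 0.02 between same-numbered arrays, for numbers 1 to 4. Between unlike numbers, r was 0.35 and 0.24 within arrays 1 and 2, and 0.45 and 0.32 within arrays 3 and 4. Across these sets it ran from -0.50 to 0.02. Whether the numbers pair the arrays cannot be told from these values.

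The 78 genes called in all became 202 with array weights, 245 with array set, 2 without moderation, 22 within arrays 1 and 2, 19 without HNF6KO arrays 3 and 4, 14 at a threshold of 0.01, 162 at 0.1, and 16 to 79 when 1 array was left out. Onecut1, whose groups do not overlap, kept its direction under all 22 alternatives and its call under 14.

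The sign of 7 members turned under at least 1 alternative. Quantile normalization gave -0.0067 for Saa4, and array weights 0.092 for Saa3. Within arrays 1 and 2 the change was 0.47 for Saa3 and 0.045 for Hp. Within arrays 3 and 4 it was -0.56 for Saa1, -0.99 for Saa2, -0.18 for Saa4, -0.061 for Orm1 and -0.65 for Lcn2. Without HNF6KO arrays 3 and 4 it was -0.19 for Saa4 and 0.015 for Hp. With 1 array left out, changes ran from -0.19 to 1.79 for Saa2, -0.50 to 0.59 for Saa3, -0.18 to 0.19 for Saa4, -0.012 to 0.20 for Orm1, -0.16 to 0.042 for Hp and -0.13 to 1.48 for Lcn2. The causes were not tested. Orm2 and Orm3 kept their sign under each alternative run. Crp did too, but as its groups do not overlap, leaving out, splitting or weighting arrays could not turn it.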

Other observations

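Glucocorticoids act together with interleukin-6 on acute phase genes. All 12 listed glucocorticoid response genes were measured, 0 passed in limma, and 1 was higher and 1 lower at an unadjusted p of 0.05, namely Tdo2 (tryptophan dioxygenase, 0.20 ± 0.07, SE, limma adjusted p = 0.377) and the transcription factor Klf9 (-0.35 ± 0.15, SE, limma adjusted p = 0.512). Fkbp5, a chaperone of the glucocorticoid receptor, had log2 values of 8.39, 8.66, 10.85 and 10.99 in WT, and of 8.49, 9.98, 11.25 and 10.69 in HNF6KO, in array order. Zbtb16, another target of that receptor, had 8.24, 8.26, 10.80 and 10.70 on WT arrays and 9.06, 9.54, 10.54 and 10.26 on HNF6KO arrays. Arrays 3 and 4 were high for both genes in both groups, while Saa2 was low on WT array 3 and on HNF6KO array 4. Among the members, Saa4 was also higher on arrays 3 and 4 than on arrays 1 and 2 in both groups. Fkbp5 and Zbtb16 were named after their values were seen. Per1, Sgk1, Dusp1, Klf9 and Tdo2 were also higher on arrays 3 and 4 than on arrays 1 and 2 in both groups. So was the mean over the list. Tat, Tsc22d3, Pck1, Hsd11b1 and Nr3c1, the receptor itself (9.72 to 9.89 on all arrays), did not have this pattern in both groups.

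The leptin receptor gene Lepr, also named after its values were seen, was 7.36 on HNF6KO array 2 and between 4.95 and 5.65 on the other 7 arrays. HNF6KO array 2 was also the highest HNF6KO array for Saa1, Saa2, Orm2 and Lcn2, whereas WT array 4, the highest WT array for those genes, had a Lepr value of 5.48.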
